A study of Mus musculus with 28 samples.

Results

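The genes described here are 7 in number and encode 6 enzymes of cholesterol synthesis, Hmgcs1, Idi1, Fdft1, Sqle, Lss and Cyp51, and the regulator Insig1. They were selected by gene symbol, not by their values, and all 7 were found among the 14711 genes of the deposited tables, with counts in each of the 28 libraries. No uptake receptor is among them, so cholesterol uptake was read from a separate list. RNA came from the CA1 region of the hippocampus of C57BL/6 mice aged 3 to 4 weeks that carry 1 copy of a Cre driver and 1 copy of a Cre-dependent HA tag on the ribosomal protein gene Rpl22 (CaMK2a-Cre/+; LSL-Rpl22-HA/+ or PV-Cre/+; LSL-Rpl22-HA/+). The CaMK2a driver marks mainly excitatory neurons and the PV driver marks parvalbumin interneurons. Mice received an intraperitoneal injection of kainic acid, which activates glutamate receptors and causes seizures, or of PBS, and tissue was taken 6 h later. The deposited column names give PBS groups an earlier time, so the interval after PBS is uncertain. Anti-HA immunoprecipitation (IP) recovered transcripts on tagged ribosomes, and a part of the same lysate gave the input. The 8 groups are the combinations of line, treatment and fraction, each with 3 libraries in the CaMK2a line (4 pooled mice and 20 ng of RNA per library) and 4 in the PV line (9 to 10 pooled mice and 2.5 ng). All groups carry a Cre driver, CaMK2a or PV, and the tag. There was no group without a driver or without the tag, so nonspecific capture by the antibody was not measured here. The labels call the libraries of a group separate biological replicates.

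Cholesterol is built from acetyl-CoA. Hmgcs1 makes HMG-CoA, the precursor of mevalonate, and Idi1 interconverts the isoprenoid units that follow. Fdft1 (squalene synthase) makes squalene, Sqle (squalene epoxidase) oxidises it, Lss (lanosterol synthase) closes the rings and Cyp51 demethylates lanosterol. The transcription factor SREBP2, encoded by Srebf2, activates most of these genes when membrane sterol is low, and Insig1, itself a target of SREBP, holds the SREBP escort protein Scap in the endoplasmic reticulum when sterol is plentiful. The brain makes its own cholesterol because lipoproteins do not cross the blood-brain barrier, and in the adult brain astrocytes and oligodendrocytes contribute much of it.

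Promoters are shown for Hmgcs1 and Cyp51, which had the largest kainic acid differences in the CaMK2a IP among the well-counted members, and for Insig1, the regulator. The RefSeq promoter table (GRCm38.p6) held 5 of the 7 members, Hmgcs1, Idi1, Lss, Cyp51 and Insig1. Each line runs 5′ to 3′ on the strand of the gene and ends at the base before the RefSeq start. Capitals mark the sterol regulatory element TCACNCCAC and the CCAAT box (CCAAT, or ATTGG when it lies on the other strand).
Hmgcs1 (chr13:119690101-119690350, plus strand): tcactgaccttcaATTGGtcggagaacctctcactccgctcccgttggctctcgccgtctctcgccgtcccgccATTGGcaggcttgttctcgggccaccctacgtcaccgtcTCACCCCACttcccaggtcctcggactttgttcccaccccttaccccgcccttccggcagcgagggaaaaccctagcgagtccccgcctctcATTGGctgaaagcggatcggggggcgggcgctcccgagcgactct
Cyp51 (chr5:4104698-4104947, minus strand): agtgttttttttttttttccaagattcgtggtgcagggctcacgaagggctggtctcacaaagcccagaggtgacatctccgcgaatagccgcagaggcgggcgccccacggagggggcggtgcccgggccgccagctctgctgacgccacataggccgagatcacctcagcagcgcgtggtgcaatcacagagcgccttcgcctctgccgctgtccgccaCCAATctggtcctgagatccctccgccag
Insig1 (chr5:28071162-28071411, plus strand): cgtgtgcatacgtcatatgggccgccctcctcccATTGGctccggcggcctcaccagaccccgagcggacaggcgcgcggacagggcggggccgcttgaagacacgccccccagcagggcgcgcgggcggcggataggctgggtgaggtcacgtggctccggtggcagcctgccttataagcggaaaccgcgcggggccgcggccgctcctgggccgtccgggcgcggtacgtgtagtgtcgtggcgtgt

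Motifs were searched on both strands of the full windows, from 250 bases before to 50 after the start. The sterol regulatory element TCACNCCAC occurred in 1 of the 5 windows, that of Hmgcs1 at position -137 from the start, against 1.24% of 32851 promoters. The CCAAT box occurred in 5 of 5 windows, against 37.4% of promoters, and the GC box GGGCGG in 5 of 5, against 35.7%. The cyclic AMP response element TGACGTCA and the AP-1 site TGANTCA, motifs of activity-regulated factors, occurred in 0 of 5, against 1.79% and 7.81% of promoters. The shorter TGACG, which lies within TGACGTCA, occurred in Hmgcs1, Cyp51 and Insig1, 3 of 5 against 20.8%. The E-box CACGTG occurred in the Insig1 window only, 1 of 5 against 7.15%. These are letter matches in short windows to the spellings given, and other forms of these elements were not searched. With 5 genes the shares are a description.

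Libraries held 6.06 to 15.8 M counted reads, and levels are given as CPM, the count per 1 M counted reads after TMM scaling over all 28 libraries. In the PV line the libraries numbered 4 stood apart: their deviations from the group means were correlated between fractions and treatments at r = 0.43 to 0.68, against 0.045 to 0.2 for PV libraries numbered 1 to 3. PV results are therefore also given with replicates 1 to 3 only. Of the pyramidal neuron markers 5 of 6 were higher in the CaMK2a IP than in its input after PBS, and of the PV interneuron markers 5 of 6 were higher in the PV IP than in its input, while 7 of 7 and 6 of 7 astrocyte markers were lower. The astrocyte genes Aqp4 and Gfap were not analysed here. The PV IP still held a summed astrocyte marker level of 4676 to 6372 CPM after PBS, against 1361 to 2036 CPM in the CaMK2a IP. In the PV input that sum was 9073 to 11120 CPM. Oligodendrocyte and precursor sums after PBS overlapped, at 3422 to 5260 CPM in the PV IP and 4668 to 6517 CPM in its input. Of these markers 4 of 6 were lower in the PV IP. Pyramidal sums were 4365 to 5351 CPM against 9113 to 9895 CPM. The PV IP values are therefore not those of PV cells alone. Whether the counting used strand is not stated, so reads of a member and of a gene on the opposite strand cannot be told apart where exons overlap. In the GENCODE M21 annotation Fdft1 shares 18.3% of its exonic bases with Ctsb, Hmgcs1 12.1% with Gm48342, Idi1 9.22% with Gm48574, Cyp51 3.76% with Akap9 and Lss 3.53% with 4930483K19Rik.

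The members differed widely in abundance. On the length-scaled RPKM scale the group means of the CaMK2a input after PBS were 15.85 for Hmgcs1 (gene ID 208715, mm10 chromosome 13, 119690356 to 119708082, 12 exons) and 14.7 for Sqle (gene ID 20775, chromosome 15, 59315092 to 59331193, 11 exons), the 2 highest. Fdft1 (gene ID 14137, chromosome 14, 63145150 to 63178972, 10 exons), Insig1 (gene ID 231070, chromosome 5, 28071412 to 28078662, 5 exons) and Cyp51 (gene ID 13121, chromosome 5, 4080674 to 4104697, 10 exons) followed at 10.8, 7.84 and 6.86 RPKM. Lss (gene ID 16987, chromosome 10, 76531565 to 76557139, 23 exons) stood at 1.465 RPKM and Idi1 (gene ID 319554, chromosome 13, 8885606 to 8892396, 5 exons) at 0.203 RPKM. Idi1 was counted with only 10 to 76 reads per library, so its values are the least precise of the 7.

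Over the 8 groups the highest group mean in CPM exceeded the lowest 5.68-fold for Cyp51, 3.91-fold for Idi1 and 2.65-fold to 2.89-fold for the other 5 members. The CaMK2a IP after PBS was the lowest group for Hmgcs1, Idi1, Lss, Cyp51 and Insig1. The PV IP was the lowest for Fdft1 (66.97 ± 14.0 CPM after kainic acid, SD, n = 4) and for Sqle (74.1 ± 13.8 CPM after PBS). An input after kainic acid was the highest group for 6 members, the PV input for Hmgcs1, Idi1, Lss and Cyp51 and the CaMK2a input for Sqle and Insig1, while Fdft1 peaked in the CaMK2a IP after kainic acid. Most neighbours in these orders overlapped. For Hmgcs1 the groups ran in order from PV input, CaMK2a IP, CaMK2a input and PV IP after kainic acid (337 ± 21.0, 311 ± 24.4, 288 ± 15.5 and 266 ± 35.95 CPM) to PV input, PV IP, CaMK2a input and CaMK2a IP after PBS (238 ± 6.48, 176 ± 27.7, 167 ± 12.1 and 117 ± 3.77 CPM). Adjacent groups of Hmgcs1 were free of overlap at 2 steps only, from PV input to PV IP after PBS and from CaMK2a input to CaMK2a IP after PBS. For Cyp51 the last 2 steps were free of overlap, from 89.3 ± 6.27 CPM in the CaMK2a input to 67.2 ± 9.24 CPM in the PV IP and 39.3 ± 5.22 CPM in the CaMK2a IP, all after PBS.

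**Figure D1:**
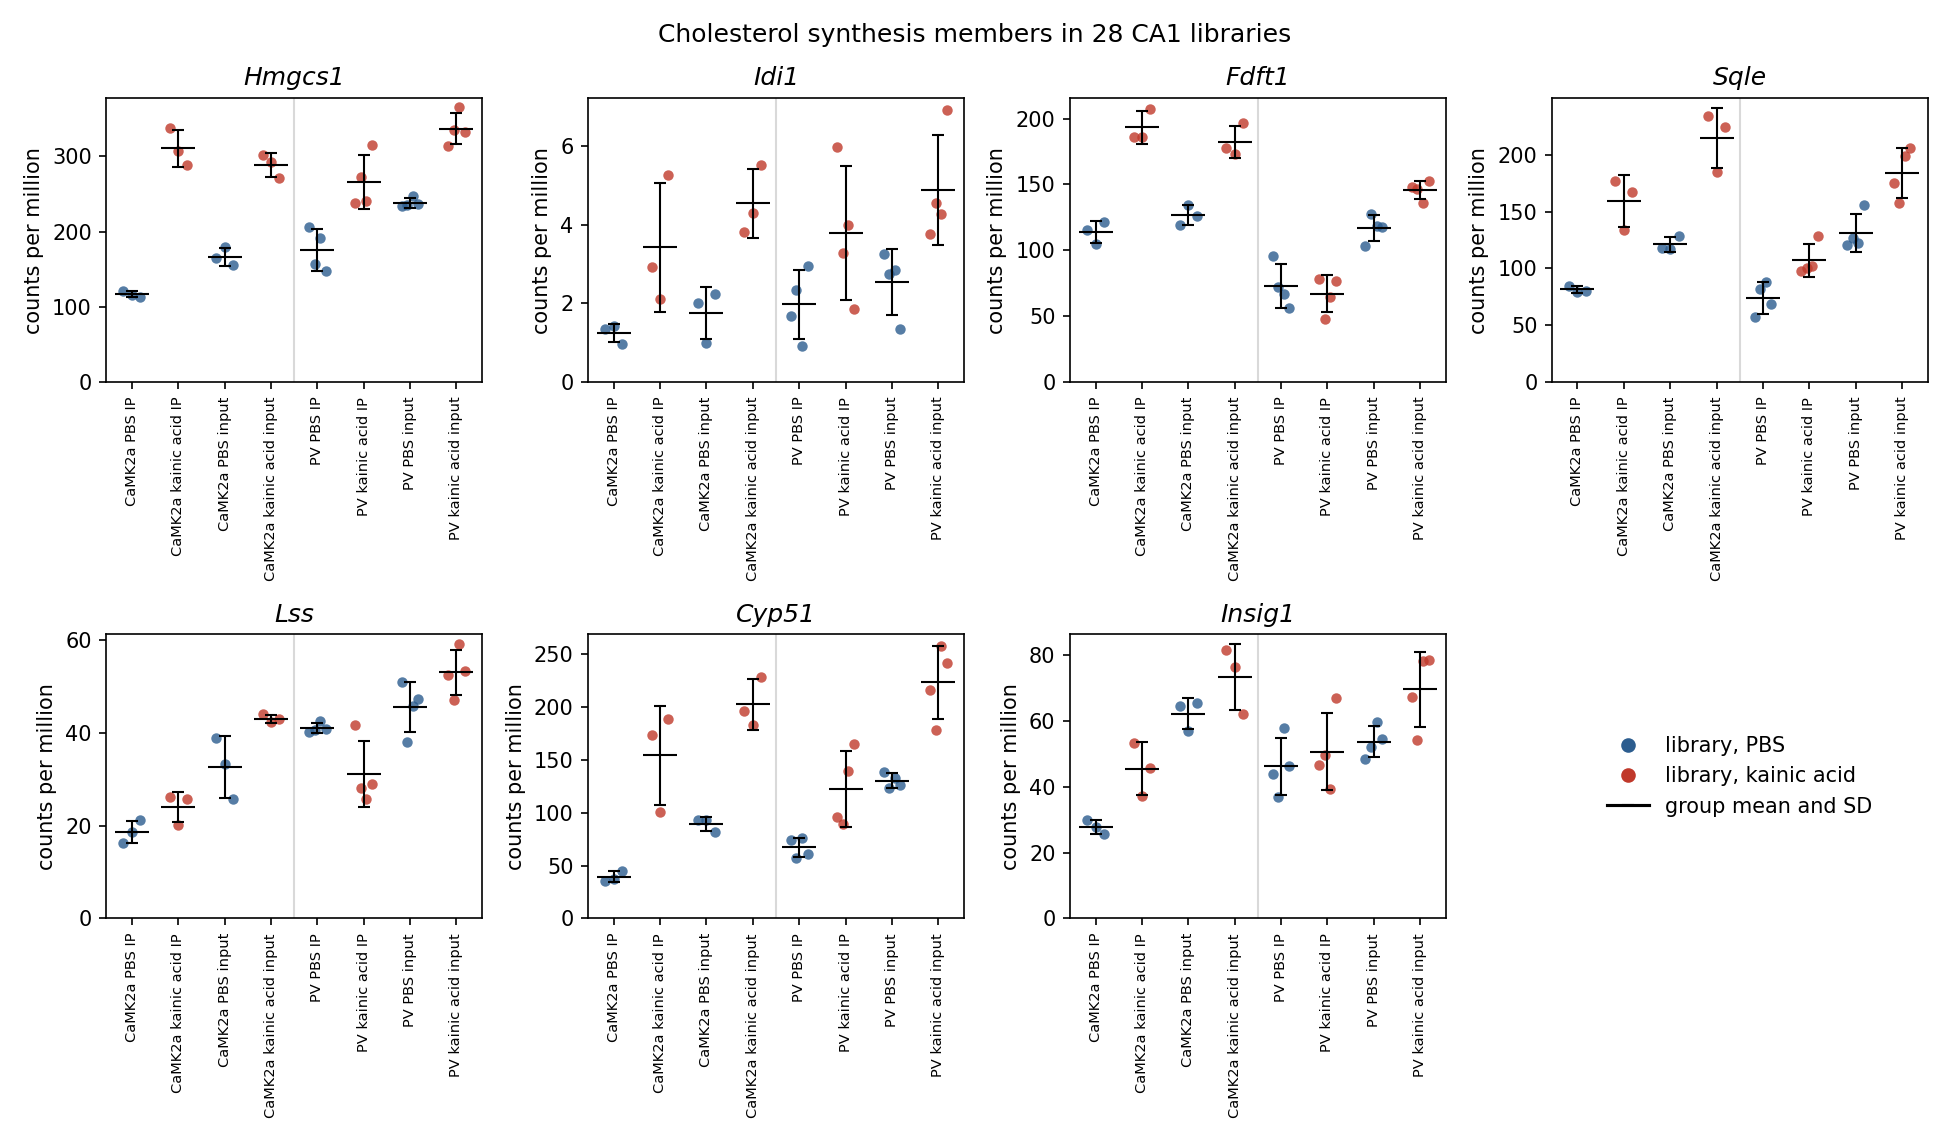
CPM (linear axis from 0, 1 panel per gene) of the 7 members in each of the 28 libraries, by group; blue points are PBS libraries, red points kainic acid libraries, and black marks the group mean with its SD (n = 3 in the CaMK2a line, n = 4 in the PV line). Cyp51 runs from 35.4 CPM in the lowest to 257 CPM in the highest library, and the red points of Fdft1 and Lss in the PV IP lie among or below the blue ones.

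The first comparison asks how transcripts on ribosomes of CaMK2a-Cre cells differed after kainic acid. In the CaMK2a IP 6 of the 7 members rose, all but Lss. The background was broad: of 10663 genes tested 19.8% were higher and 15.3% lower at an adjusted p under 0.05 (Benjamini-Hochberg over all genes, edgeR quasi-likelihood test). With upper-quartile scaling the share of higher genes among those called moved from 56.4% to 42.4%, and 6 members remained called. The median log2 difference was 0.97 over the members and 0.01 over all genes tested. Less RNA per cell and fewer cells of a type cannot be told apart in such libraries, and scaling to the library total makes each difference relative to the other transcripts.

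The 2 mevalonate members had similar estimates and unlike precision. Hmgcs1, the enzyme that feeds HMG-CoA to the pathway, stood at 121, 116 and 114 CPM after PBS and at 337, 307 and 289 CPM after kainic acid in the CaMK2a IP. The groups did not overlap, every kainic acid library lay far above every PBS library, and the log2 difference was 1.42 ± 0.09 (SE, n = 3 per group, edgeR adjusted p = 5.0e-06). Idi1, the isomerase, stood at 1.35, 1.42 and 0.973 CPM after PBS and at 2.91, 2.11 and 5.26 CPM after kainic acid. It rose by 1.47 ± 0.44 (edgeR adjusted p = 0.027), with 1 kainic acid library well above the other 2. Without CaMK2a kainic acid IP replicate 3, the highest, Idi1 had a log2 difference of 1.00 and was not called (edgeR adjusted p = 0.149), nor was it without any 1 of the 3 PBS libraries (0.0636 to 0.103).

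Among the enzymes from squalene onward Cyp51 rose most. Cyp51, the lanosterol demethylase, stood at 35.4, 37.3 and 45.3 CPM after PBS and at 174, 101 and 188 CPM after kainic acid, a 3.96-fold difference (log2 1.98 ± 0.22, edgeR adjusted p = 1.1e-04). All kainic acid libraries lay far above all PBS libraries, though replicate 2 was well below the other kainic acid libraries. Sqle, which commits squalene to sterol synthesis, stood at 84.7, 79.6 and 80.3 CPM after PBS and at 177, 134 and 168 CPM after kainic acid (log2 0.97 ± 0.12, edgeR adjusted p = 2.2e-04). Its PBS libraries lay within a few CPM of each other and the groups did not overlap. Fdft1, which makes squalene, stood at 115, 105 and 122 CPM after PBS and at 186, 186 and 208 CPM after kainic acid (log2 0.77 ± 0.10, edgeR adjusted p = 2.5e-04), again without overlap. Lss, the cyclase, was at 16.3, 18.5 and 21.1 CPM after PBS and at 26.2, 20.2 and 25.7 CPM after kainic acid. Its groups overlapped and it was not called (log2 0.38 ± 0.16, edgeR adjusted p = 0.098), although without CaMK2a kainic acid IP replicate 2 it passed (log2 0.48, edgeR adjusted p = 0.030).

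The regulator rose too. Insig1, which restrains SREBP processing, stood at 29.8, 27.7 and 25.5 CPM after PBS and at 53.3, 37.3 and 45.8 CPM after kainic acid in the CaMK2a IP (log2 0.72 ± 0.15, edgeR adjusted p = 0.0047). The 2 groups did not overlap, and replicate 2 was again the lowest of the kainic acid libraries, as it was for Idi1, Sqle, Lss and Cyp51. Of the astrocyte markers 1 of 7 rose in this comparison, and their summed level was 1287 to 2493 CPM after kainic acid against 1361 to 2036 CPM after PBS. No oligodendrocyte marker of 6 was called, with sums of 526 to 1455 CPM against 691 to 1368 CPM. The sums of the 2 groups overlapped for both glial lists. Markers of other interneurons (2 of 5) and microglia (1 of 6) rose in part. Of the PV interneuron markers 3 of 6 rose, with sums of 288 to 407.5 CPM against 177 to 224 CPM, and of the pyramidal markers 2 of 6 fell, with sums of 8348 to 9861 CPM against 10300 to 11790 CPM. The part of these shifts in the members' differences was not tested.

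In the CaMK2a input, total CA1 RNA of the same mice, 6 of the 7 members rose as well, all but Insig1, against a background of 19.3% higher and 15.7% lower of 11287 genes tested, and the median of the members was 0.79 against -0.02 over all genes. Hmgcs1 was at 165, 180 and 156 CPM after PBS and at 301, 293 and 271 CPM after kainic acid (log2 0.79 ± 0.09, edgeR adjusted p = 3.3e-06). Cyp51 went from 92.9, 93.0 and 82.1 CPM to 196, 183 and 229 CPM (log2 1.18 ± 0.11, edgeR adjusted p = 1.8e-07). In both genes the lowest kainic acid library exceeded the highest PBS library by a wide margin. Sqle stood at 118, 117 and 129 CPM after PBS and at 234, 184 and 224 CPM after kainic acid (log2 0.82 ± 0.11, edgeR adjusted p = 1.1e-05). Fdft1 stood at 119.5, 135 and 126 CPM and at 177, 173 and 196 CPM (log2 0.53 ± 0.10, edgeR adjusted p = 4.8e-04). Neither gene's groups overlapped.

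The remaining input results were less firm. Idi1 stood at 1.999, 0.997 and 2.25 CPM after PBS and at 3.82, 4.28 and 5.52 CPM after kainic acid in the CaMK2a input (log2 1.39 ± 0.38, edgeR adjusted p = 0.0088), without overlap. It was not called without CaMK2a PBS input replicate 2 (edgeR adjusted p = 0.0558). Lss stood at 39.0, 33.3 and 25.8 CPM and at 44.0, 42.3 and 42.95 CPM (log2 0.39 ± 0.15, edgeR adjusted p = 0.046). That call of Lss sat at the threshold and ended with upper-quartile scaling (0.088), without a filter on low counts (0.052), in the fit to all CaMK2a groups (0.061) and without any 1 of 4 libraries (PBS input replicates 2 and 3, kainic acid input replicates 1 and 3; 0.066 to 0.211). Insig1 overlapped, with 64.5, 56.8 and 65.3 CPM after PBS and 81.6, 76.4 and 62.1 CPM after kainic acid. It was not called (log2 0.24 ± 0.12, edgeR adjusted p = 0.133), though without kainic acid input replicate 3, the lowest, it passed (log2 0.34, edgeR adjusted p = 0.027). Of the astrocyte markers 2 of 7 rose in the input, and their summed level was 8712 to 9535 CPM after kainic acid against 8079 to 8142 CPM after PBS. Neuronal and vascular markers moved too. Of the PV interneuron markers 4 of 6 rose, with sums of 1024 to 1091 CPM against 731 to 781.5 CPM, and 2 of 5 markers of other interneurons and 3 of 7 endothelial and mural markers rose. Of the pyramidal markers 2 of 6 fell, with sums of 7628 to 8045 CPM against 8737 to 9870 CPM, without overlap. Of the microglia markers 2 of 7 rose and 2 fell, and no oligodendrocyte marker of 6 was called. The part of any of these cell types in the members' input differences was not tested.

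In the PV IP, the RNA recovered with the tag in the PV line, 1 of the 7 members rose, Cyp51. Of 11107 genes tested 4.05% were higher and 0.801% lower, and the median of the members was 0.51 against -0.02 over all genes. Cyp51 stood at 74.3, 57.4, 75.9 and 61.4 CPM after PBS and at 95.8, 89.3, 139 and 165 CPM after kainic acid (log2 0.84 ± 0.23, n = 4 per group, edgeR adjusted p = 0.043). The groups did not overlap, but the kainic acid libraries were widely spread, with replicates 3 and 4 above the other 2. With PV replicates 1 to 3 only the log2 difference of Cyp51 was 0.63 ± 0.22 and the call ended (edgeR adjusted p = 0.117). It also ended with upper-quartile scaling (0.071) and without any 1 of PV kainic acid IP replicates 3 and 4 or any 1 of the 4 PV PBS IP libraries (0.0735 to 0.152).

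The other members of the PV IP differed in direction. Hmgcs1 stood at 206.5, 157, 191 and 148 CPM after PBS and at 238, 273, 240.0 and 315 CPM after kainic acid, without overlap. It was not called (log2 0.58 ± 0.18, n = 4 per group, edgeR adjusted p = 0.084), yet it passed with DESeq2 (adjusted p = 0.033) and in the fit to all 4 PV groups (edgeR, 0.011). Sqle stood at 57.3, 82.3, 88.0 and 68.8 CPM and at 97.3, 100.1, 102 and 129 CPM (log2 0.51 ± 0.20, edgeR adjusted p = 0.211), also without overlap. Fdft1 had its lowest levels here, at 95.7, 72.1, 66.6 and 56.3 CPM after PBS and 78.5, 48.1, 64.6 and 76.6 CPM after kainic acid, fully interleaved (log2 -0.14 ± 0.23, edgeR adjusted p = 0.834). Lss was tightly grouped after PBS, at 40.1, 40.6, 42.5 and 40.7 CPM, and stood at 41.7, 28.1, 25.8 and 29.0 CPM after kainic acid. In 3 of 4 kainic acid libraries Lss lay below every PBS library, while replicate 1 lay among them, and Lss was not called (log2 -0.42 ± 0.25, edgeR adjusted p = 0.446). Insig1 (log2 0.11 ± 0.25) and Idi1 (log2 0.89 ± 0.75) overlapped between groups and were not called, with edgeR adjusted p = 0.888 and 0.621. With PV replicates 1 to 3 only no member was called, and the estimate of Insig1 was -0.05 ± 0.26. Of the markers in the PV IP 1 of 6 for PV interneurons and 2 of 5 for other interneurons rose, 1 of 6 pyramidal markers fell, and none of the glial or endothelial lists was called. The biological coefficient of variation over all genes was 44.3% in the PV IP against 14.8% in the CaMK2a IP.

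In the PV input, total CA1 RNA of the PV line, Hmgcs1 and Cyp51 rose, 2 of 7 members, where 8.21% of 11145 genes were higher and 3.36% lower, and the median of the members was 0.46 against -0.02 over all genes. Hmgcs1 stood at 234, 235, 248 and 236 CPM after PBS and at 314, 336, 365 and 333 CPM after kainic acid (log2 0.47 ± 0.11, edgeR adjusted p = 0.017). Cyp51 stood at 139, 124, 133 and 126 CPM and at 217, 179, 257 and 241 CPM (log2 0.75 ± 0.14, edgeR adjusted p = 0.0040). In neither gene did the groups overlap. The Hmgcs1 call ended without PV kainic acid input replicate 3 or PBS input replicates 1 or 2 (edgeR adjusted p = 0.0609 to 0.0699) and in the fit to all 4 PV groups (0.075). Replicate numbers are not stated to pair the treatments, and only the PV inputs numbered 4 were each other's closest match (r = 0.68). In the edgeR fit with replicate number as a block 5 members rose: Hmgcs1, Cyp51, Sqle (log2 0.46, adjusted p = 3.1e-04), Fdft1 (0.29, 0.018) and Insig1 (0.33, 0.032). In that fit 1835 genes were higher and 1590 lower. Without the block Sqle was at log2 0.46 ± 0.14 and not called (edgeR adjusted p = 0.060), though it passed with DESeq2 (adjusted p = 0.027) and without PV PBS input replicate 4 (edgeR, 0.57, 0.018). Likewise, Idi1 (0.92 ± 0.39), Fdft1 (0.29 ± 0.12), Insig1 (0.34 ± 0.16) and Lss (0.19 ± 0.15) were not called (edgeR adjusted p = 0.163 to 0.483). With PV replicates 1 to 3 only 3 members rose, Hmgcs1, Cyp51 and Sqle (log2 0.50 ± 0.10 for Sqle, edgeR adjusted p = 5.8e-04). In that setting 1608 of 11118 genes were higher and 1150 lower, against 915 and 374 with all libraries. Of the markers in the PV input 1 of 6 for PV interneurons, 2 of 5 for other interneurons and 1 of 7 endothelial and mural rose, 1 of 6 pyramidal and 1 of 7 microglia fell, and no astrocyte or oligodendrocyte marker was called.

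**Figure D2:**
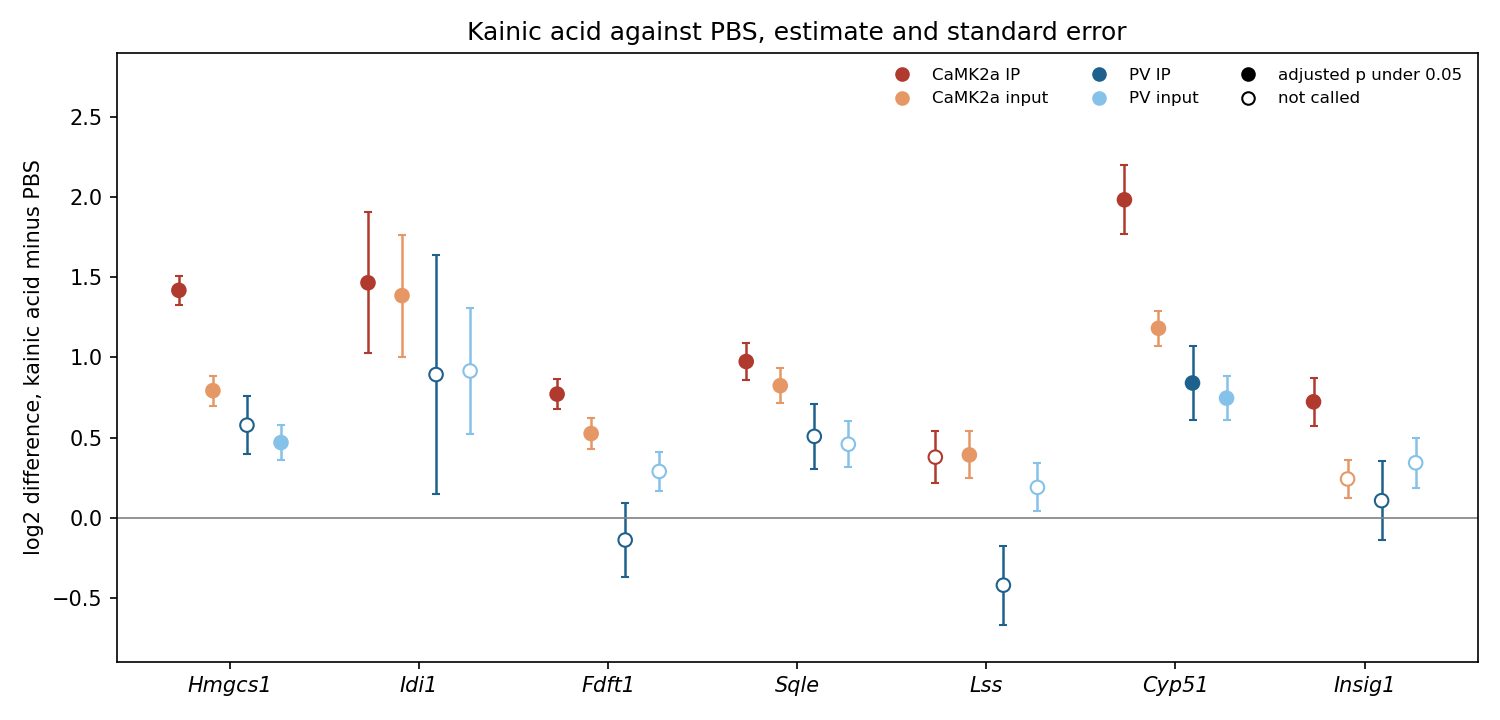
Log2 difference of kainic acid minus PBS (points) with its standard error (bars) for the 7 members in the CaMK2a IP, CaMK2a input, PV IP and PV input; filled points have an adjusted p under 0.05 and open points were not called. The CaMK2a IP point is the highest of the 4 fractions for 6 members, from 0.72 for Insig1 to 1.98 for Cyp51, and the PV IP points of Fdft1 and Lss lie below 0.

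The sizes of these differences were then compared directly, as the kainic acid effect in 1 fraction minus that in another. With all libraries of the groups compared and no block, edgeR called no member in any of the 4 tests. For the CaMK2a IP minus the CaMK2a input 12 of 11623 genes were called (0.103%), and Hmgcs1 had the best supported difference of the members, 0.59 ± 0.13 (edgeR adjusted p = 0.109), followed by Cyp51 at 0.77 ± 0.26 (0.382) and Insig1 at 0.44 ± 0.20 (0.583). Since IP and input of a number come from 1 lysate, the fit with lysate pool as a block applies, and there the difference of Hmgcs1 was 0.58 and passed (edgeR adjusted p = 0.037), as it did with DESeq2 (0.60, adjusted p = 0.0060). In those fits 57 and 71 genes were called. Without CaMK2a kainic acid IP replicate 2, the library with the lowest Cyp51 level of its group, Cyp51 passed at 1.01 (edgeR adjusted p = 0.011). For the other 4 members the differences ran from -0.05 ± 0.23 for Lss to 0.21 ± 0.13 for Fdft1.

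For the PV IP minus the PV input 3 of 11862 genes were called (0.0253%), and the members ran from -0.57 ± 0.26 for Lss to 0.15 ± 0.20 for Hmgcs1. Between the lines, for the CaMK2a IP minus the PV IP, 11 of 11781 genes were called (0.0934%). All 7 members had positive estimates there: Cyp51 1.14 ± 0.34 (edgeR adjusted p = 0.403), Fdft1 0.91 ± 0.28 (0.453), Hmgcs1 0.84 ± 0.22 (0.308), Lss 0.79 ± 0.31 (0.711), Insig1 0.62 ± 0.31, Idi1 0.56 ± 0.91 and Sqle 0.46 ± 0.25. Hmgcs1 passed with PV replicates 1 to 3 only (0.95 ± 0.17, edgeR adjusted p = 0.036) and in the fit to all 8 groups (0.81, 0.037). For the CaMK2a input minus the PV input 0 of 11816 genes were called (0%) by edgeR, with 336 genes (2.84%) at an unadjusted p under 0.05 and 4 called by DESeq2. The estimates there ran from -0.09 for Insig1 to 0.48 for Idi1. At an unadjusted p under 0.05 the 4 tests held 3, 1, 4 and 2 of the 7 members, where 8.47%, 4.25%, 6.1% and 2.84% of all genes lay. A difference that misses the threshold does not show that the effects were equal, and line, RNA amount and pool size cannot be told apart between the lines.

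**Figure D3:**
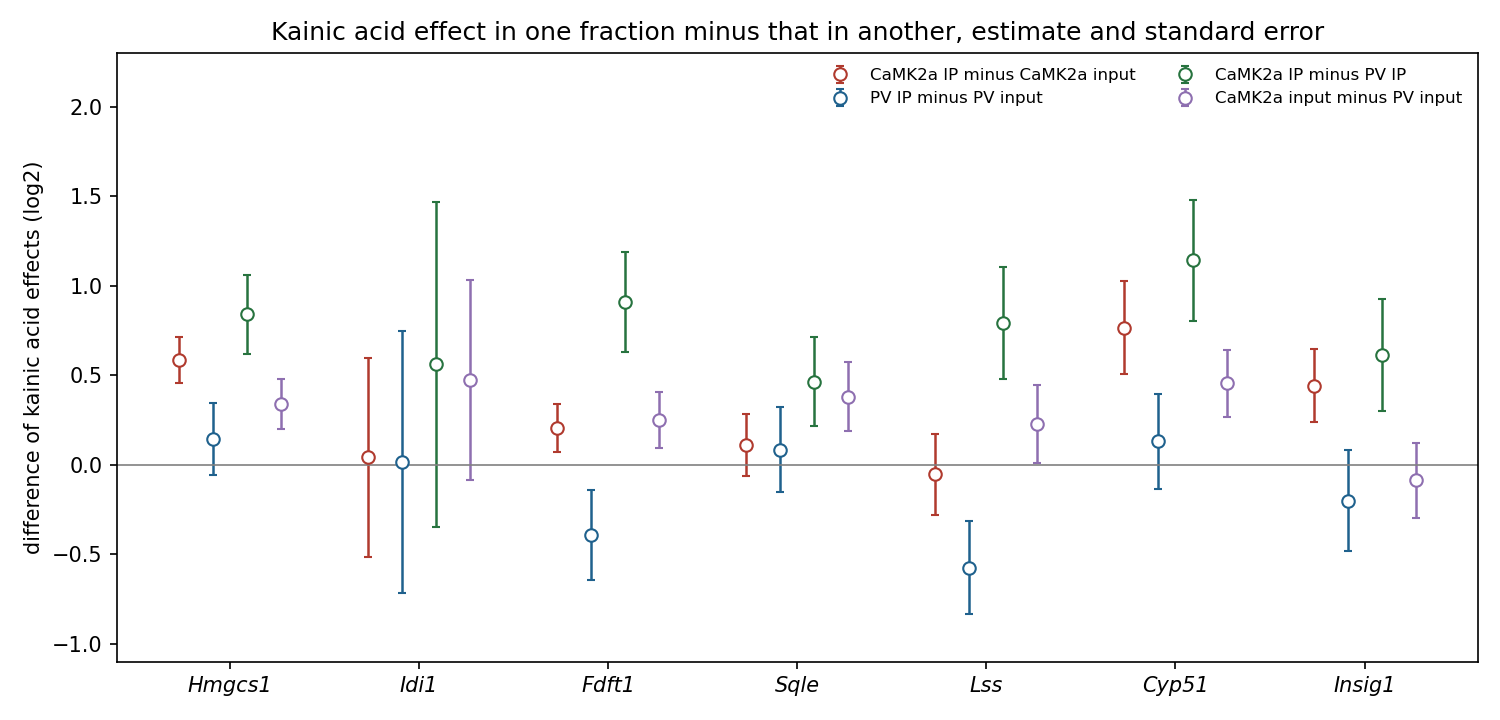
Difference between kainic acid effects in 2 fractions (log2, points) with its standard error (bars) for the 7 members, in 4 pairs of fractions. All points are open because none had an adjusted p under 0.05 in these edgeR fits, which use no block. The CaMK2a IP minus PV IP points lie above 0 for all 7 members, up to 1.14 for Cyp51, while those of PV IP minus PV input scatter around 0, from -0.57 for Lss to 0.15 for Hmgcs1.

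The IP was also set against the input of the same lysates, which compares the RNA recovered with the tag with total CA1 RNA. Nonspecific capture was not measured, so these differences do not describe the tagged cells alone. The fits used no block for the lysate pool, although IP and input are paired by it. Results with the pool as a block are given where a member's call changed. After PBS 5 of the 7 members were lower in the CaMK2a IP than in its input, where 31.6% of 11190 genes were lower. Cyp51 and Insig1 had the largest deficits, with log2 differences of -1.17 ± 0.10 and -1.14 ± 0.10 (edgeR adjusted p = 1.6e-08 and 2.9e-08, n = 3 per group). Lss (-0.81 ± 0.15), Sqle (-0.55 ± 0.07) and Hmgcs1 (-0.49 ± 0.07) were lower as well (edgeR adjusted p = 1.3e-04, 2.9e-06 and 6.7e-06). In these 5 genes every IP library lay below every input library. Fdft1 (-0.14 ± 0.07) and Idi1 (-0.44 ± 0.43) overlapped and were not called, though Fdft1 passed with upper-quartile scaling (-0.25, edgeR adjusted p = 0.0047), a scaling that moved the median of all genes in this comparison to -0.13 and, after kainic acid, to -0.15. The astrocyte markers were lower by far more, with a median of -2.68 over 7 genes, and the 6 oligodendrocyte markers had a median of -2.98, against a median of -0.55 over the members.

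After kainic acid 3 of 7 members were lower in the CaMK2a IP, where 25.8% of 11076 genes were: Lss (-0.86 ± 0.16), Insig1 (-0.71 ± 0.17) and Sqle (-0.45 ± 0.15), with edgeR adjusted p = 8.9e-04, 0.0045 and 0.026. Hmgcs1 stood at 0.09 ± 0.12 and Fdft1 at 0.07 ± 0.12, with overlapping groups. Cyp51 stood at -0.41 ± 0.21 and was not called. It passed with lysate pool as a block (-0.45, edgeR adjusted p = 0.0075). The share of all genes lower in that fit is not reported here. The call of Sqle ended without any 1 of 4 libraries, CaMK2a kainic acid input replicates 1 and 3 and IP replicates 2 and 3 (edgeR adjusted p = 0.0773 to 0.120).

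In the PV line 3 of 7 members were lower in the IP after PBS, where 7.98% of 11204 genes were: Cyp51 (-0.92 ± 0.15), Sqle (-0.79 ± 0.17) and Fdft1 (-0.65 ± 0.17), with edgeR adjusted p = 6.8e-04, 0.0052 and 0.017 (n = 4 per group). Hmgcs1 was free of overlap at -0.41 ± 0.14 but was not called (0.058). With lysate pool as a block it passed (-0.42, edgeR adjusted p = 0.0049). Lss and Insig1, both lower in the CaMK2a IP, overlapped between PV IP and input at -0.12 ± 0.17 and -0.18 ± 0.18. After kainic acid the same 3 members, Fdft1 (-1.07 ± 0.20), Cyp51 (-0.82 ± 0.22) and Sqle (-0.73 ± 0.18), were lower, with edgeR adjusted p = 0.0030, 0.029 and 0.016. There 4.11% of 11205 genes were lower, and the share of higher genes among those called moved from 62.5% to 50.9% with upper-quartile scaling. Lss stood at -0.72 ± 0.22 (0.054) and passed with the pool as a block (-0.74, edgeR adjusted p = 0.020) and without PV kainic acid IP replicate 1 (-0.89, 0.028). The block also moved the lower genes from 894 to 1599 after PBS, and the higher and lower genes after kainic acid from 767 and 460 to 1313 and 1082. With PV replicates 1 to 3 only Fdft1, Sqle, Cyp51 and also Hmgcs1 were lower after both treatments, Hmgcs1 by -0.35 ± 0.11 and -0.39 ± 0.11 (edgeR adjusted p = 0.042 and 0.034). The shares of all genes lower in that setting are not reported here, so these calls have no background beside them. Without PV kainic acid input replicate 3 only Fdft1 was called after kainic acid, and without PV PBS input replicate 2 Fdft1 was not called after PBS (edgeR adjusted p = 0.065), while Hmgcs1 passed without PV PBS IP replicate 1 (-0.50, 0.036). Cyp51 after kainic acid also missed the threshold without any 1 of PV input replicates 1 and 4 and IP replicates 1 and 2, and Sqle without IP replicate 1 (edgeR adjusted p = 0.0514 to 0.0878 for these). In the PV line the median after PBS was -1.005 over the astrocyte markers, -1.15 over the oligodendrocyte markers and -0.41 over the members. After kainic acid these medians were -1.06, -1.19 and -0.72.

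**Figure D4:**
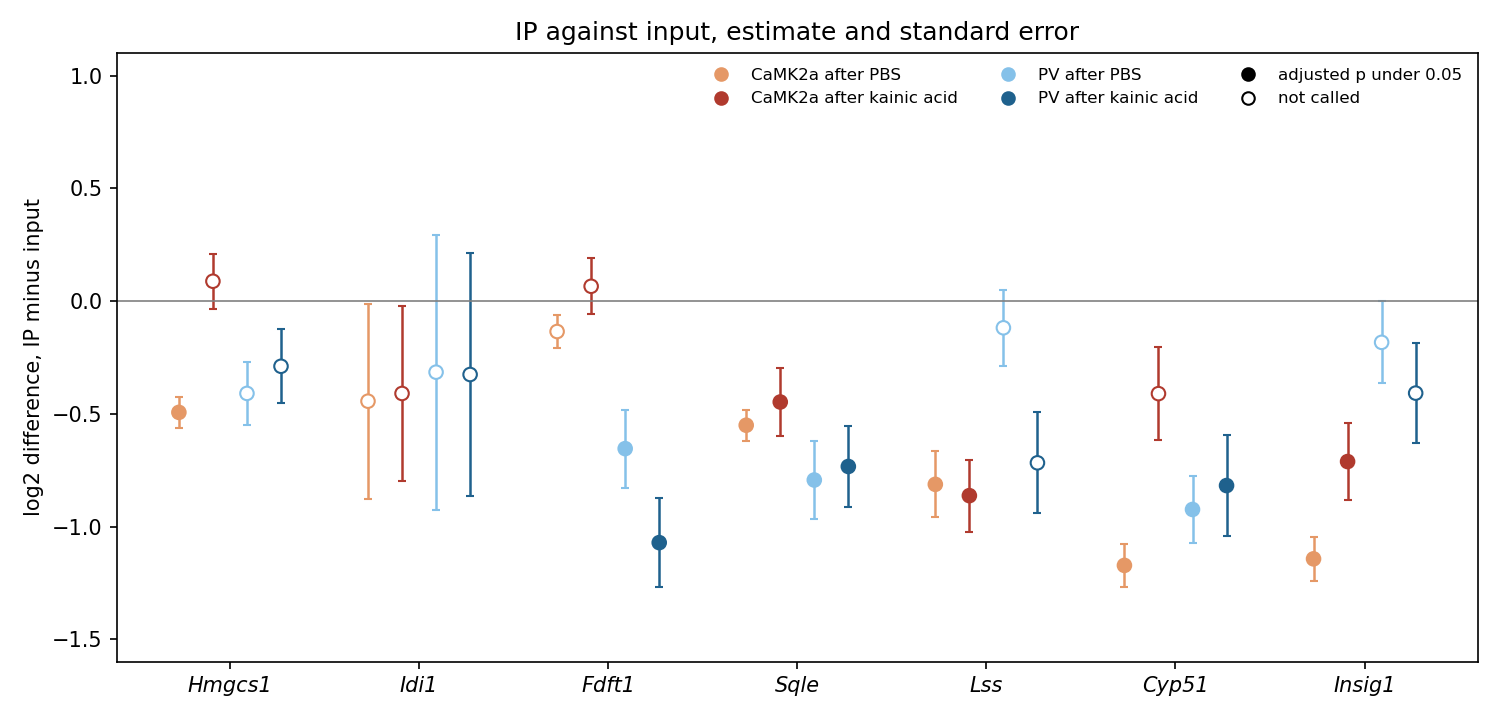
Log2 difference of IP minus input (points) with its standard error (bars) for the 7 members in the CaMK2a and PV lines after PBS and after kainic acid; filled points have an adjusted p under 0.05 and open points were not called. The edgeR fits shown use no block for the lysate pool. No filled point lies above 0. Cyp51 in the CaMK2a line moves from -1.17 after PBS to -0.41 after kainic acid. The filled points of Fdft1 belong to the PV line.

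The last comparison sets the PV IP against the CaMK2a IP after PBS. Here 4 of 7 members were higher and 1 lower, where 18% of 11131 genes were higher and 14.3% lower. Lss was 2.19-fold higher (log2 1.13 ± 0.19, edgeR adjusted p = 7.4e-04), and none of its PV libraries (40.1 to 42.5 CPM) came near the CaMK2a libraries (16.3 to 21.1 CPM). Cyp51 (0.76 ± 0.18), Insig1 (0.73 ± 0.20) and Hmgcs1 (0.58 ± 0.15) were higher, with edgeR adjusted p = 0.0061, 0.015 and 0.012. Fdft1 was lower (-0.66 ± 0.18, edgeR adjusted p = 0.015), at 56.3 to 95.7 CPM in the PV IP against 105 to 122 CPM. Sqle (-0.15 ± 0.17) and Idi1 (0.65 ± 0.67) overlapped. With 1 CaMK2a PBS IP library left out the higher members fell to 1 without replicate 1 and to 2 without replicate 2 or 3, and Fdft1 was not called without replicate 1 or 3. Lss remained called in each of these. Glial markers were higher in the PV IP too, 7 of 7 astrocyte and 6 of 6 oligodendrocyte and precursor markers, with summed oligodendrocyte levels of 3422 to 5260 CPM against 691 to 1368 CPM. Their part in the members' differences was not tested, and line, RNA amount and pool size cannot be told apart.

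The rest of the pathway was read from 6 lists that hold 59 genes, members included, of which 54 were in the tables. Among those that are not members 10 of 44 rose and 5 fell in the CaMK2a IP, 14 of 46 rose and 5 fell in its input, 3 of 45 rose and none fell in the PV IP, and 7 of 46 rose and 2 fell in the PV input. Over all genes tested 19.8% rose and 15.3% fell in the CaMK2a IP, 19.3% and 15.7% in its input, 4.05% and 0.801% in the PV IP, and 8.21% and 3.36% in the PV input. In the CaMK2a IP the non-member counts lie near these shares. The list counts that follow include the members and are to be read against the same shares. Of the mevalonate list 4 of 7 tested genes rose in the CaMK2a IP, 5 of 7 in its input, 1 of 7 in the PV IP and 3 of 7 in the PV input, and none fell. Pmvk, a kinase that phosphorylates phosphomevalonate, rose from 25.3 to 86.6 CPM in the CaMK2a IP (1.78 ± 0.15), and by 1.96 ± 0.13 and 1.42 ± 0.21 in the CaMK2a and PV inputs. In the PV IP Pmvk was at 1.13 ± 0.38 and not called (edgeR adjusted p = 0.12). It passed there with DESeq2 (1.14, adjusted p = 0.045) and without PV PBS IP replicate 4 (1.501, edgeR adjusted p = 0.039).

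From squalene onward 7 of 13 genes rose in the CaMK2a IP, 7 of 13 in the CaMK2a input, 3 of 13 in the PV IP and 4 of 13 in the PV input, and none fell. Msmo1 and Hsd17b7, which act together on the methyl groups of the sterol ring, were higher in all 4 fractions. Msmo1 rose by 1.47 ± 0.25, 0.94 ± 0.11, 1.11 ± 0.24 and 0.73 ± 0.21 in the CaMK2a IP, CaMK2a input, PV IP and PV input, and Hsd17b7 by 0.73 ± 0.15, 0.98 ± 0.11, 1.11 ± 0.26 and 0.63 ± 0.18 (edgeR adjusted p at most 0.040). The PV calls of both were fragile. In the PV input both ended with upper-quartile scaling (0.071 and 0.069) and in the fit to all 4 PV groups (0.074 and 0.134). Leaving out any 1 of 6 PV inputs also ended them there, for Msmo1 kainic acid replicates 2 to 4 and PBS replicates 1 to 3 (edgeR adjusted p = 0.0527 to 0.129), and for Hsd17b7 kainic acid replicates 1, 3 and 4 and PBS replicates 1 to 3 (0.0515 to 0.134). In the PV IP Msmo1 ended without PBS replicate 2 (0.0502), and Hsd17b7 without kainic acid replicate 1 or 3 or PBS replicate 1, 2 or 3 (0.0556 to 0.0803). The desaturase gene Sc5d rose in the CaMK2a IP (1.59 ± 0.20), CaMK2a input (0.77 ± 0.11) and PV input (0.82 ± 0.14) and was at 0.77 ± 0.22 in the PV IP (edgeR adjusted p = 0.061; DESeq2, 0.013). Ebp, a sterol isomerase, rose in the CaMK2a IP (1.14 ± 0.23). In the CaMK2a input it was at 0.42 ± 0.17 and not called, and it passed there without kainic acid input replicate 2 (0.55) and with a replicate block (0.41). Dhcr7, a reductase of the last steps, ran from -0.31 to 0.16 and was not called in any fraction. Without CaMK2a kainic acid input replicate 2 Dhcr7 passed in that input (0.34, edgeR adjusted p = 0.030).

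None of the 8 tested uptake genes was called in the CaMK2a IP, 4 of 9 rose in its input and none of 9 was called in either PV fraction. As examples chosen after their values were seen, Npc2, which carries cholesterol out of lysosomes, rose in the CaMK2a input (0.39 ± 0.12, edgeR adjusted p = 0.015), and the endocytic receptor gene Lrp1 stood at -0.04 ± 0.09 there (0.783).

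Of the regulators 1 of 8 rose and 2 fell in the CaMK2a IP, 1 rose and 3 fell in its input, none was called in the PV IP and 1 fell in the PV input. Insig1 was the riser in the IP. Scap, which escorts SREBP out of the endoplasmic reticulum, fell from 79.8 to 53.2 CPM in the CaMK2a IP (-0.58 ± 0.11, edgeR adjusted p = 0.0025) and from 104 to 79.0 CPM in its input (-0.40 ± 0.11, 0.0090). Mbtps2, a protease that releases SREBP, fell as well, by -0.45 ± 0.13 and -0.44 ± 0.15 (0.021 and 0.034). In the GENCODE M21 annotation Mbtps2 shares 28.4% of its exonic bases with Yy2 on the same strand. Scap shares 13.2% with 5830462I19Rik on the opposite strand. Reads in the shared bases may belong to either gene. The Mbtps2 call ended in the IP without kainic acid replicate 3 or PBS replicate 2 or 3 (0.0728 to 0.0872), and in the input without kainic acid replicate 1 or 3 or any PBS replicate (0.0575 to 0.164). The Scap call in the input ended without PBS replicate 3 (-0.30, 0.0892). Insig2, the paralogue of Insig1, fell in the CaMK2a input (-0.56 ± 0.15, edgeR adjusted p = 0.0068) and in the PV input (-0.52 ± 0.15, 0.047) and stood at 0.07 ± 0.12 in the CaMK2a IP. Its PV input call ended without any 1 of 7 of the 8 libraries, all but PBS replicate 4 (0.0628 to 0.153), without a filter on low counts (0.062) and in the fit to all 4 PV groups (0.091). Srebf2 rose in the CaMK2a input alone among the calls (0.40 ± 0.10, edgeR adjusted p = 0.0045) and was at 0.20 ± 0.11 in the CaMK2a IP. Srebf1, which drives mainly fatty acid genes, was not called in any fraction, and in the CaMK2a input it stood at -0.40 ± 0.15 (edgeR adjusted p = 0.0504) and passed with upper-quartile scaling (-0.46, 0.024). In the PV input with replicate number as a block Scap also fell (-0.53, edgeR adjusted p = 0.0012), against -0.50 ± 0.29 without it, and it passed without PV kainic acid input replicate 4 (-0.85, 0.020) and with PV replicates 1 to 3 only (-0.58, 0.0036).

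Of the efflux and turnover genes 3 of 6 rose and 2 fell in the CaMK2a IP. Soat1, which stores cholesterol as esters, rose from 21.05 to 45.7 CPM (1.13 ± 0.16, edgeR adjusted p = 6.0e-04), and also in the CaMK2a and PV inputs (0.69 ± 0.12 and 0.60 ± 0.14). The PV input call of Soat1 ended without kainic acid replicate 3 or PBS replicate 1 (0.0524 and 0.0552) and in the fit to all 4 PV groups (0.098). Nceh1, which hydrolyses cholesterol esters, fell in the CaMK2a IP (-0.68 ± 0.09), in its input (-0.68 ± 0.10) and in the PV input (-0.46 ± 0.11, edgeR adjusted p = 0.021), and stood at 0.14 ± 0.16 in the PV IP. Its PV input call ended without kainic acid replicate 1 or 3 or PBS replicate 1, 2 or 3 (0.0503 to 0.0787). Apoe, the main apolipoprotein of brain glia, rose in the CaMK2a IP from 28.5 to 48.7 CPM with overlapping groups (0.79 ± 0.25, edgeR adjusted p = 0.037). Its levels in the input were 518 and 622 CPM. The Apoe call in the IP ended with upper-quartile scaling (0.68, edgeR adjusted p = 0.061) and with a replicate block (0.73, 0.055). It also ended without any 1 of kainic acid IP replicates 1 and 3 and PBS IP replicates 1 to 3 (0.43 to 0.92, edgeR adjusted p = 0.0521 to 0.129). Cyp46a1, the neuronal cholesterol hydroxylase, was not analysed here. Abca1, a cholesterol exporter, was not called in any fraction, and passed in the PV input with the replicate block (0.39, edgeR adjusted p = 0.023). Of the 9 fatty acid genes 1 rose and 1 fell in the CaMK2a IP, Scd2 (0.39 ± 0.10) and Acaca (-0.53 ± 0.17), and both calls were fragile. Scd2 ended without PBS IP replicate 1 or 3 (0.0736 and 0.0751), and Acaca without kainic acid IP replicate 2 or any PBS IP replicate (0.0715 to 0.125). Fasn, the fatty acid synthase, was not called in any fraction, with values from -0.35 ± 0.31 to -0.04 ± 0.10. In the PV input Fasn fell with the replicate block (-0.39, edgeR adjusted p = 0.0018), with PV replicates 1 to 3 only (-0.46, 0.0024) and without PV kainic acid input replicate 4 (-0.76, 0.034).

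**Figure D5:**
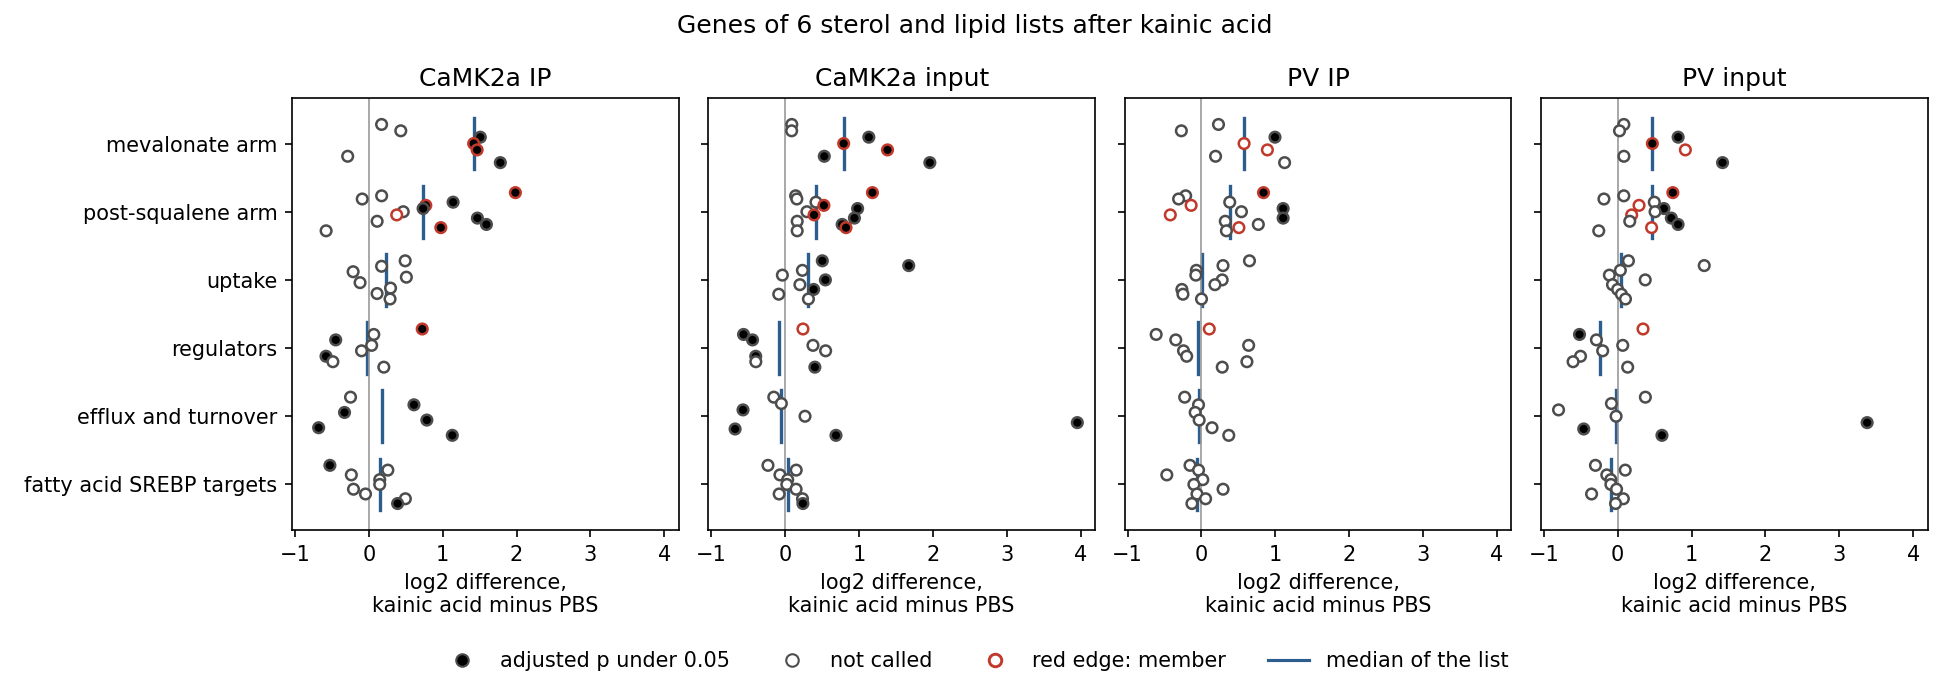
Log2 difference of kainic acid minus PBS for each tested gene of 6 lists, 1 panel per fraction on a common axis; filled points have an adjusted p under 0.05, red edges mark the 7 members and blue lines the list medians. In the CaMK2a IP the mevalonate list has a median of 1.42 and the list from squalene onward 0.73, while uptake lies at 0.23 and regulators at -0.03.

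The members varied together to different degrees across the libraries. Over all 28 libraries Pearson r of log2 CPM was 0.91 for Cyp51 with Hmgcs1 and 0.87 for Cyp51 with Sqle, and at the low end 0.03 for Lss with Fdft1. Within lines the pairing of Fdft1 with Hmgcs1 was closer, at 0.95 over the 12 CaMK2a libraries and 0.59 over the 16 PV libraries, than the 0.37 over all. These libraries share treatment groups, fractions and lysates, so the values describe them and carry no test. Of 7863 genes outside the set with a mean log2 CPM of at least 3, those most like the mean centred profile of the members were Itgav, an integrin subunit (r = 0.93), the sterol genes Soat1 (0.92), Sc5d (0.92) and Msmo1 (0.91), and Ntrk2, the BDNF receptor TrkB (0.91). Within the PV libraries alone their r ran from 0.82 for Msmo1 to 0.93 for Ntrk2.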

How the data were processed

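CA1 RNA was measured in 28 libraries, 14 IPs and 14 inputs. Per the labels' protocols, 20 ng (CaMK2a line) or 2.5 ng (PV line) of RNA was amplified by SPIA, an isothermal method that can distort abundance, before single-end sequencing. The authors used BWA and edgeR with mm10 (GRCm38), per the submitters' processing notes, which give no versions. The deposited tables, per their names and the file headers, hold raw read counts per coding gene that the authors kept from a minimum of 4 reads summed over a table, and they list genes with higher and lower values in separate files, which were joined. The deposited RPKM values, per the file headers and the listed gene lengths, are the authors' counts per length and library total, and were used only to compare levels between genes. The 6 joined tables hold 13384 to 14033 genes each, and 189281 counts present in 2 tables did not differ in any case.

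Counts were tested with edgeR 4.0.16 in R 4.3.3 (quasi-likelihood test, prior count 0.125, normalization by TMM, low genes removed by filterByExpr at a minimum count of 10) on the groups compared, with Benjamini-Hochberg adjustment over all genes tested and a threshold of 0.05. Standard errors were taken as the log2 difference divided by the root of the F statistic. Depth was 6.06 to 15.8 M counts per library. Tests were tried on simulated data. Replicate numbers pair IP with input, which come from 1 lysate per number according to the design text. The numbers are not stated to pair kainic acid with PBS pools. Same-numbered PV inputs had r = 0.2, 0.19, 0.18 and 0.68 between treatments, and only those numbered 4 were each other's closest match. Alternatives were other scaling factors and filters, DESeq2 1.42.0, a replicate block, fits to more groups, PV replicates 1 to 3 only and each library left out in turn.

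The 7 genes, the pathway lists, the marker lists and the rule for named genes were chosen with earlier results of these data known. The rule named all members, 12 pathway genes whatever their values, and up to 3 genes per list with the largest called difference in the CaMK2a IP and in the PV IP. Of 59 pathway genes 54 were found. Some results for single pathway genes are not reported here, while the list counts include all genes tested.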

Additional observations from a re-analysis of the deposited data

Results flagged for a closer look

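Among the 28 groups of 4 PV libraries (7 members in 4 PV groups) 1 held a library far from the others. Sqle in PV kainic acid IP replicate 4 stood at 128.6 CPM, against 97.3, 100.1 and 102 CPM in the other 3, a gap that, relative to the range, exceeds Dixon's critical value for 4 libraries. Chance flags about 1 in 20 such groups. This library is among the PV libraries numbered 4 that stood apart.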

How the results depend on the processing

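No member's difference called in a comparison changed sign under any alternative. In the PV IP the count of members higher moved from 1 to 0 with upper-quartile factors and with PV replicates 1 to 3 only. It moved to 2 with DESeq2, a replicate block or all 4 PV groups. All genes higher moved from 450 to 413 (upper-quartile factors) and 776 (all 4 groups). Those counts with DESeq2, the block and replicates 1 to 3 are not reported here, so the member counts there have no same-direction background. All genes lower moved from 89 to 209 (DESeq2), 248 (replicate block), 285 (all 4 groups) and 178 (replicates 1 to 3). In the PV input members higher moved from 2 to 5 (replicate block) and 1 (all 4 groups), all genes higher from 915 to 1835 (replicate block), 603 (all 4 groups) and 1608 (replicates 1 to 3), and all genes lower from 374 to 658 (DESeq2), 1590 (replicate block), 214 (all 4 groups) and 1150 (replicates 1 to 3). For PV IP against input the replicate block moved lower genes after PBS from 894 to 1599, and after kainic acid higher genes from 767 to 1313 and lower genes from 460 to 1082 (715 with DESeq2). Called differences between kainic acid effects moved from 12 to 71 (DESeq2) and 57 (replicate block) for CaMK2a IP minus input, with 1 member in each; from 3 to 7, 9 and 10 (DESeq2, replicate block, replicates 1 to 3) for PV IP minus input; from 11 to 39, 17, 33 and 70 (DESeq2, replicate block, all 8 groups, replicates 1 to 3) for CaMK2a IP minus PV IP, with 1 member in the last 2; and from 0 to 4, 7 and 3 (DESeq2, replicate block, replicates 1 to 3) for the inputs. Without scaling factors the highest and lowest group stayed the same for 4 of 7 members. The cause of these moves was not tested.

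With 1 library left out, members higher ranged from 5 to 7 in the CaMK2a IP (all genes 1479 to 2318 higher, 979 to 1924 lower), 4 to 6 in its input (1708 to 2357, 1200 to 1957), 0 to 1 in the PV IP (329 to 586, 30 to 164) and 1 to 3 in the PV input (682 to 1151, 196 to 616). Members lower in the IP than in the input ranged from 5 to 5 and 2 to 3 in the CaMK2a line after PBS and kainic acid. All genes lower ranged from 3218 to 3538 and 2346 to 2954 there. In the PV line members lower ranged from 2 to 4 and 1 to 3. All genes lower were at 581 to 1025 and 234 to 520 and all higher at 839 to 1259 and 486 to 843 in the PV line. Between effects, called genes ranged from 5 to 63 (0 to 1 member), 2 to 3, 2 to 24 and 0 to 0 in the order above. For PV IP against CaMK2a IP, members ranged from 1 to 4 higher and 0 to 1 lower, and all genes from 1219 to 2347 and 921 to 2058. Where a group keeps 2 libraries, its spread is assumed to be that of the others.

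A replicate block between treatments rests on a number alone. Same-numbered libraries had r = -0.094, -0.2 and 0.14 in the CaMK2a IP and 0.11, 0.094 and 0.29 in the CaMK2a input. They had r = 0.062, 0.045, 0.064 and 0.43 in the PV IP and 0.2, 0.19, 0.18 and 0.68 in the PV input. The block made Idi1 miss the threshold in the CaMK2a IP (log2 1.39, edgeR adjusted p = 0.060) and Hmgcs1 pass in the PV IP (0.58, 0.032). In the comparisons of kainic acid with PBS it changed no other member's call outside the PV input. Over single members 641 values under other alternatives kept their side of the threshold, 24 gained a call and 7 lost one, and with 1 library left out these were 788, 6 and 39. Depth limits Idi1 most, with 10 to 76 reads per library.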
